A study of Mus musculus with 11 samples.

Results

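Hox genes are described here across the neuron classes of the mouse stellate ganglion. The members were chosen by name: Hoxa5, Hoxa7, Hoxb5, Hoxb6, Hoxb7, Hoxb8, Hoxc5, Hoxc6, Hoxc8 and Hoxc9. Of these 10 genes, 6 are among the 19444 genes of the expression table, namely Hoxb6, Hoxb7, Hoxc5, Hoxc6, Hoxc8 and Hoxc9. Hoxa5, Hoxa7, Hoxb5 and Hoxb8 were not analysed here. The RNA came from sorted single cells of 6 male C57BL/6J mice aged 6 to 8 weeks, and the stellate ganglion is a sympathetic ganglion that serves the forelimb, the heart and the brown fat between the shoulder blades. All mice carried 2 retrograde tracers, CTB-488 from a forelimb injection and CTB-555 from an injection into interscapular brown fat, given 3 days before the ganglia were collected, so no group was free of them. Ganglia of 2 mice went into each of 3 pools, called sets, and the set is the replicate (n = 3). The 11 plates (4 in Set 1, 4 in Set 2, 3 in Set 3) are technical, and no label ties a cell to a tracer.

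Hox genes encode homeodomain transcription factors that lie in 4 chromosomal groups, HoxA to HoxD. Along each group, the order of the genes matches the order in which they are switched on along the head-to-tail axis of the embryo, so the set of Hox genes that a neuron carries can mark the level of the body from which it arose. The genes of the middle of the HoxC group are known for their part in setting neuron identity at the neck, forelimb and chest levels of the spinal cord.

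The 4 members with more than a few counts lie together on chromosome 15 (GRCm38, GENCODE M21, plus strand). Hoxc9 spans chr15:102976439-102985099, Hoxc8 spans chr15:102990607-102994111 and Hoxc6 spans chr15:102998257-103011881. The Hoxc5 gene model, at chr15:102967443-103017429, reaches across all 3 of these genes and shares 166 exon bases with Hoxc10, so counts in that stretch cannot be assigned to Hoxc5 alone. Hoxc4 follows at chr15:103018934-103036852. Hoxb7 at chr11:96286623-96290162 and Hoxb6 at chr11:96292476-96301569 belong to the HoxB group. The homeobox is the coding stretch for the DNA-binding domain and the part in which these genes are most alike, and it is shown because the results turn on telling HoxC genes apart. Each is read 5' to 3' from the GENCODE M21 transcripts, and capitals mark a base that is not the most common, or tied for it, among the 4 genes shown at that position.
Hoxc9: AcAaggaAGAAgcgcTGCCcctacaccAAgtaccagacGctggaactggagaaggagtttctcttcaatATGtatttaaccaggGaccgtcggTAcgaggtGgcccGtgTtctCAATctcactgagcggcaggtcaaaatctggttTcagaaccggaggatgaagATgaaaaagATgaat
Hoxc8: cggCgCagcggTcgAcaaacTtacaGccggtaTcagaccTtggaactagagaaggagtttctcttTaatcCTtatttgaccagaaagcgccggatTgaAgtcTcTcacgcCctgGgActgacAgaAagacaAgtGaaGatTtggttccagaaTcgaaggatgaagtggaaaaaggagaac
Hoxc6: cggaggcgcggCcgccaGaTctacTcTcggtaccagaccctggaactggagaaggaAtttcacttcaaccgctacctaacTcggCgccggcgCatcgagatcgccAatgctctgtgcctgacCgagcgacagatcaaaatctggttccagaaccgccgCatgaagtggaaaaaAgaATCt
Hoxc4: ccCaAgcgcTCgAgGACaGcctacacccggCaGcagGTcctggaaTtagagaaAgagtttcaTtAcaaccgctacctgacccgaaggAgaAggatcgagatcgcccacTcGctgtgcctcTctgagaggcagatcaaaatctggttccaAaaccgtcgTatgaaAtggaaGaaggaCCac
All 180 bases of each homeobox align, and 78 of them are the same in all 4 genes. Hoxc9 stands furthest from the rest, with 31 capitals, and Hoxc6 nearest, with 16. Hoxc4 and Hoxc6 share 70.6% of their homeobox bases, Hoxc8 and Hoxc9 share 64.4%, and Hoxc4 and Hoxc9 share 60%. The reads came from the 3' ends of transcripts and not from the homeobox. In the last 500 bases of the transcripts the longest run shared by Hoxc8 and Hoxc9 was 22 bases, and the longest run shared by any other pair among Hoxc4, Hoxc5, Hoxc6, Hoxc8 and Hoxc9 was 12 bases.

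Levels are given as mean counts per 10000 counts of a cell, averaged over the cells of a class in each set. The authors' annotation puts the 878 cells into 4 numbered clusters. Cluster 3 holds cells of very different depth and was split at 27343 counts, in the gap between 18608 and 52105, into 47 high-count and 54 low-count cells. Cluster 1 held 388 cells with a median of 28396 counts, cluster 2 held 335 with 40121, high-count cluster 3 had a median of 68061, low-count cluster 3 of 2683.5, and cluster 4 held 54 cells with 35488.5. Plates held 2050165 to 3373157 counts, and the same 96 well barcodes recur over the plates. In each class 11 of 11 sympathetic neuron markers had counts, Th (tyrosine hydroxylase) was found in every cell of clusters 1, 2, 4 and high-count cluster 3, and cluster 4 carried the cholinergic markers, with a summed level of 79.7 to 99.4 against 0.316 to 1.75 in the other 3 neuron classes. The low-count cells had sympathetic marker sums of 45, 97.5 and 33.7 in Sets 1, 2 and 3, against 79.7 to 208 in the other classes, so Set 2 overlapped cluster 4 (79.7 to 120). They had raised endothelial (9.69 to 32.1, against 0.62 to 1.9), mural (2.47 to 26.6, against 0.00998 to 1.38) and fibroblast (0.327 to 44.1, against 0 to 0.174) sums and glial sums of 15.6 to 87.7, and they were left out of the tests. Differences were tested with limma on set means of log2(1 + counts per 10000), with the set as a block, over 10518 genes, and a call is an adjusted p below 0.05. The clusters were made from these same cells, so a p describes how well a difference repeats over the sets. Of the members, Hoxc5, Hoxc6, Hoxc8 and Hoxc9 had a mean level of at least 0.05 and were tested. Hoxc9 passed this filter through clusters 1 and 4, and Hoxb6 and Hoxb7 did not pass.

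Hoxc9, the most posterior member and a known organiser of chest-level motor neuron identity, separated cluster 1 from cluster 2. Its level in cluster 1 was 0.369, 0.426 and 0.505 in Sets 1, 2 and 3 (0.433 ± 0.0682, SD, n = 3). In cluster 2 it was 0.0169, 0.0458 and 0.00427 (0.0223 ± 0.0213). The lowest cluster 1 set lay far above the highest cluster 2 set. In Set 2 the cluster 2 level was 0.146 on plate 8 and 0 to 0.0388 on the other 3 plates, and without plate 8 it was 0.0168. These averages over cells rest on 5 counts in 5 cells of that set, which summed gave only 0.00963 per 10000. In summed counts the clusters held 480 and 14, a ratio of 41.1 (95% exact interval 24.3 to 75.8, counting error only). The 14 counts of cluster 2, in 12 cells, lie between the gauges of RNA from other cells given further on and may be background. The ratio therefore compares counts and does not measure a low expression in cluster 2. The ratio of the set means was 21.8, 9.3 and 118, and that of Set 2 was 23.4 without plate 8. The log2 difference was 0.37 (SE 0.029, limma adjusted p = 1.5e-08).

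Hoxc8, which acts in patterning the ribs and in motor neurons of the lower neck and upper chest, differed in the same direction. It measured 0.548, 0.685 and 0.617 in cluster 1 (0.617 ± 0.0682) and 0.0763, 0.111 and 0.0805 in cluster 2 (0.0893 ± 0.019). The sets of the 2 clusters did not overlap. Cluster 1 was 8.45-fold higher in summed counts (6.84 to 10.5), and the sets gave 7.18, 6.16 and 7.66. The log2 difference was 0.47 (SE 0.037, limma adjusted p = 1.6e-08). The calls for Hoxc8 and Hoxc9 between these clusters held in every alternative in which the gene was tested, and both genes were higher in cluster 1 on 11 of 11 plates. Over plates Hoxc8 ran from 0.414 to 0.776 in cluster 1 and from 0.0501 to 0.15 in cluster 2, and Hoxc9 from 0.204 to 0.662 and from 0 to 0.146.

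Hoxc6 and Hoxc5, which lie further towards the anterior end of the group, did not pass the test between clusters 1 and 2. Hoxc6, known from forelimb-level motor neurons, measured 0.465, 0.455 and 0.444 in cluster 1 (0.454 ± 0.0103) and 0.318, 0.332 and 0.345 in cluster 2 (0.332 ± 0.0136). Every cluster 1 set lay above every cluster 2 set, which was so for 7.76% of all genes tested. The log2 difference was 0.11 (SE 0.041, limma adjusted p = 0.15), the summed counts gave 1.45-fold (1.28 to 1.66), and with voom weights the adjusted p was 0.0013. Hoxc5, which acts in the motor neurons that drive the diaphragm, measured 0.126, 0.107 and 0.124 in cluster 1 (0.119 ± 0.0106) and 0.136, 0.145 and 0.178 in cluster 2 (0.153 ± 0.022). Here all cluster 1 sets were below all cluster 2 sets, as for 9.35% of genes, but this rested on plate 8 of Set 2, where the cluster 2 level was 0.287 against 0.0677 to 0.129 on the other 3 plates. Without plate 8 Set 2 was 0.0985 in cluster 1 and 0.104 in cluster 2, and the sets overlapped, as they did in summed counts per 10000 (0.108 to 0.124 and 0.114 to 0.179). The log2 difference was -0.04 (SE 0.027, limma adjusted p = 0.54), and -0.03 without plate 8 (adjusted p = 0.68). Hoxc6 was higher in cluster 1 on 10 of 11 plates and Hoxc5 on 2 of 11. In all, 2 of the 4 tested members were called between clusters 1 and 2, both higher in cluster 1, against 3.37% of all genes called higher in cluster 1, 4.71% called lower and 8.07% called in either direction. The set means did not overlap for any of the 4, with 3 members higher and 1 lower in cluster 1, and for that 1, Hoxc5, they overlapped without plate 8. The median log2 difference of the 4 members was 0.24, beside -0.011 over all genes tested. Hoxc9 entered these and the later counts of members only through its level in clusters 1 and 4, so its place in them is a description. With no filter on low levels its limma adjusted p between clusters 1 and 2 was 7.4e-05.

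**Figure D1:**
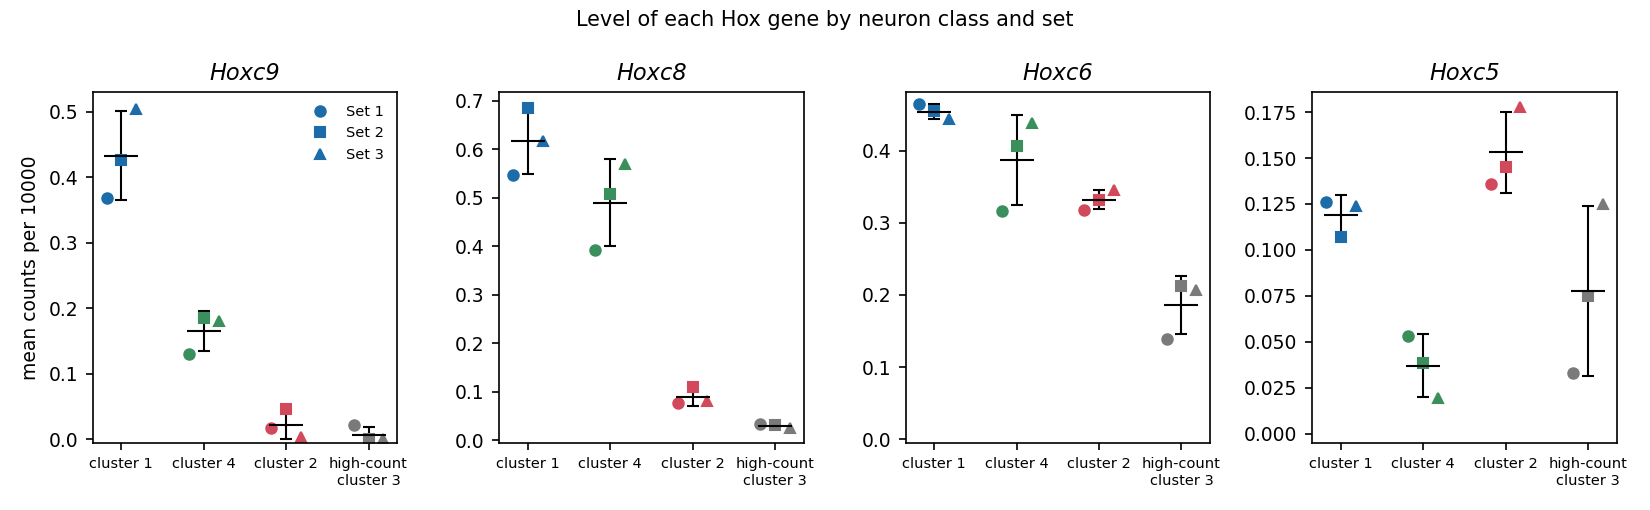
Mean counts per 10000 of Hoxc9, Hoxc8, Hoxc6 and Hoxc5 in 4 neuron classes, each gene on its own axis; symbols are sets, lines the mean and bars ± 1 SD over 3 sets. Hoxc9 and Hoxc8 are high in clusters 1 and 4 and low in cluster 2 and high-count cluster 3, Hoxc6 is lowest in high-count cluster 3, and Hoxc5 is lowest in cluster 4 on average.

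Cluster 4, the cholinergic class, shared the high Hoxc8 and raised Hoxc9 of cluster 1 and had little Hoxc5. Hoxc9 in cluster 4 was 0.131, 0.186 and 0.181 (0.166 ± 0.0305), above all cluster 2 sets and below all cluster 1 sets. Its ratio of summed levels to cluster 2 was 17.3 (9.11 to 34.7), again against counts that may be background (log2 difference cluster 2 minus cluster 4 -0.15, SE 0.029, limma adjusted p = 0.00066). It was 2.37-fold lower than in cluster 1 (1.69 to 3.43; log2 difference cluster 1 minus cluster 4 0.22, SE 0.029, limma adjusted p = 8.7e-06), a call that median-of-ratios size factors ended (adjusted p = 0.18).

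Hoxc8 in cluster 4 was 0.392, 0.508 and 0.57 (0.49 ± 0.0901). Every set lay far above the sets of cluster 2, and the summed level was 7.27-fold higher (5.48 to 9.66; log2 difference cluster 2 minus cluster 4 -0.31, SE 0.037, limma adjusted p = 3e-06). Against cluster 1 the sets of Hoxc8 overlapped. The log2 difference of cluster 1 minus cluster 4 was 0.16 (SE 0.037, limma adjusted p = 0.0033), while summed counts gave 1.16-fold with an interval that includes equality (0.947 to 1.44). This call was lost with size factors (adjusted p = 0.32), with voom weights (0.32), with the low-count cells as a class (0.19) and without Set 2 (0.058). The Hoxc8 counts of cluster 4 were unevenly spread, with 21 of 54 cells holding all 107 counts and up to 19 in a single cell, whereas 232 of 388 cells held the 698 counts of cluster 1, with at most 9 in a cell.

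Hoxc6 in cluster 4 measured 0.317, 0.406 and 0.438 (0.387 ± 0.0627), just below each cluster 1 set, as for 12% of genes, and was called against neither cluster 1 (log2 difference 0.06, limma adjusted p = 0.35) nor cluster 2 (-0.05, adjusted p = 0.5). Hoxc5 in cluster 4 was 0.0533, 0.0382 and 0.0194 (0.037 ± 0.017), from 7 counts in 5 cells. All of its sets were below those of clusters 1 and 2. Hoxc5 was 3.91-fold higher in cluster 2 than in cluster 4 (1.86 to 9.85; log2 difference 0.13, SE 0.027, limma adjusted p = 0.0013) and 3.36-fold higher in cluster 1 than in cluster 4 (1.59 to 8.52; 0.09, SE 0.027, adjusted p = 0.021). The second of these limma calls was lost without Set 2 (adjusted p = 0.12), without Set 3 (0.11), with no filter on low levels (0.085) and without the replicate block (0.069). Both calls were lost with the low-count cells as a class (0.098 against cluster 2 and 0.32 against cluster 1). Between clusters 1 and 4, 3 of 4 members were called, all higher in cluster 1, where 8.85% of all genes were higher, 11.1% lower and 19.9% called in all, and without Set 2 only 1 of the 4, Hoxc9, was called. The sets did not overlap for 3 members, all higher in cluster 1 (12% of genes) and none lower (11.4%). Between clusters 2 and 4, 1 member was higher in cluster 2 (10.1% of genes) and 2 were lower (8.76%), with 18.9% of genes called. The same 3 members had sets that did not overlap, 1 higher (12.2% of genes) and 2 lower (9.33%). The median log2 difference of the members was 0.13 for cluster 1 minus cluster 4, beside -0.005 over all genes, and -0.10 for cluster 2 minus cluster 4, beside 0.006.

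Markers of satellite glia and Schwann cells also moved with cluster 4: their 8 genes summed to 20.9 to 42.7 there, 11.5 to 14 in cluster 1, 13.6 to 23.2 in cluster 2 and 11.7 to 16.7 in high-count cluster 3. In cluster 4 none of the 8 was at 0. When the 10% of neurons richest in these markers were left out, 15 of the 54 cluster 4 cells went, and Hoxc8 in the kept cells was 0.349 against 0.902 in those left out. In cluster 1 the order of Hoxc8 was opposite, at 0.634 kept and 0.433 left out, and in cluster 2 it was 0.088 and 0.101. Hoxc9 in cluster 2 was 0.0146 in the kept cells and 0.119 in the 28 left out. Without the neurons richest in glial markers, the Hoxc8 difference between clusters 2 and 4 was -0.18 (limma adjusted p = 0.021) and the Hoxc9 difference -0.11 (adjusted p = 0.046), so both kept their direction at a smaller size. The Hoxc8 difference between clusters 1 and 4 grew to 0.31 (adjusted p = 0.0003).

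A split of cluster 4 by Sst, the somatostatin gene, chosen after values were seen and given without a test, also divided its Hox counts. Hoxc8 was 1.03, 1.01 and 1.33 in the 16 cells with Sst above 1 count per 10000 and 0.18, 0.208 and 0.352 in the other 38. The 16 cells were 3, 9 and 4 in Sets 1, 2 and 3, so Sets 1 and 3 fell below the 5 cells needed in the tests. The Set 1 value came from 7 counts in 2 cells. Hoxc9 was 0.456 against 0.0525 over all cells of each kind, Hoxc6 0.707 against 0.266, and Hoxc5 0.0573 against 0.026 from 4 and 3 counts. The glial markers summed to 31.9, 34 and 39.8 in the cells with Sst and to 17.3, 19.7 and 43.5 in the others, and their part in this difference was not tested.

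High-count cluster 3 had the lowest mean of Hoxc9, Hoxc8 and Hoxc6 among the 4 neuron classes, at the greatest depth. Hoxc9 was 0.0216 in Set 1 and 0 in Sets 2 and 3, from 2 counts in 3330054, so Set 1 alone carried it. The ratio of summed levels, cluster 1 over this class, was 70.4 with a counting interval of 19.4 to 583, and with 2 counts it is a ratio of counts only (log2 difference -0.38, SE 0.029, limma adjusted p = 5.4e-09). Hoxc8 was 0.0343, 0.0306 and 0.0261 (0.0303 ± 0.0041), from 10 counts in 9 cells, with all sets below those of clusters 1, 2 and 4. It was 20.5-fold lower than in cluster 1 (11.1 to 42.9; log2 difference -0.53, SE 0.037, limma adjusted p = 1.7e-09) and 17.6-fold lower than in cluster 4 (9.21 to 37.8; -0.37, adjusted p = 2.8e-07). Its difference from cluster 2 was not called (-0.06, adjusted p = 0.45), although summed counts were 2.42-fold lower (1.26 to 5.2) and size factors gave an adjusted p of 0.032.

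Hoxc6 in high-count cluster 3 was 0.139, 0.212 and 0.207 (0.186 ± 0.0406). These sets lay below all sets of the other 3 classes, with 2.37-fold less than cluster 1 (1.82 to 3.12; log2 difference -0.25, SE 0.041, limma adjusted p = 0.00017) and 2.03-fold less than cluster 4 (1.44 to 2.87; -0.19, adjusted p = 0.002). Against cluster 2 it was 1.63-fold lower (1.25 to 2.15; -0.14, limma adjusted p = 0.043), and this call was lost without any of the 3 sets (adjusted p = 0.25 without Set 1, 0.2 without Set 2 and 0.15 without Set 3) and at matched depth (0.12). Hoxc5 was 0.0328, 0.0749 and 0.125 (0.0777 ± 0.0464), overlapping clusters 1 and 4 and below all cluster 2 sets, and was called in no comparison of this class (adjusted p = 0.4, 0.1 and 0.16 against clusters 1, 2 and 4). For Hoxc9 the ratio of summed levels, cluster 4 over this class, was 29.6 from the same 2 counts (7.63 to 254; log2 difference -0.16, adjusted p = 0.0003) and did not differ detectably from cluster 2 (-0.01, SE 0.029, adjusted p = 0.9).

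Of the 4 tested members, 3 were lower in high-count cluster 3 than in cluster 1 (5.78% of all genes were lower, 14.2% higher and 20% called), 3 were lower than in cluster 4 (9% lower, 15.5% higher, 24.5% called) and 1 was lower than in cluster 2 (2.34% lower, 4.13% higher, 6.47% called). None was higher. Sets did not overlap, and were lower, for 3 members against cluster 1 (10.1% of genes, with 11.8% higher), 3 against cluster 4 (9.12%, with 10.5% higher) and 3 against cluster 2 (6.92%, with 6.46% higher). The median log2 difference of the members was -0.31, -0.17 and -0.07 against clusters 1, 4 and 2, while that over all genes was 0.023, 0.019 and 0.011.

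In the 54 low-count cells of cluster 3 the counts were too few for a class level. They held 187436 counts in all, and Hoxc6 had 6 of these in 6 cells (0.32 per 10000, 95% exact Poisson interval 0.117 to 0.697). Hoxc8 had 5 counts, all in Set 2 (0.267, 0.0866 to 0.623). Hoxc5 and Hoxc9 had 2 counts each (0.107, 0.0129 to 0.385), those of Hoxc9 again from Set 2. In Set 2 the glial markers of these cells summed to 87.7, against 28 and 15.6 in Sets 1 and 3, and their part in these counts was not tested. A gene with no count in these cells could still be at 0.16 per 10000, the level of 3 counts, which is above the cluster 2 levels of Hoxc8 and Hoxc9. The low-count cells therefore cannot be placed with either group of classes at this depth.

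The ratio of the summed level to that of cluster 2 was also read along the chromosome. For cluster 1 it was 41.1 for Hoxc9, 8.45 for Hoxc8, 1.45 for Hoxc6, 0.86 for Hoxc5 (0.682 to 1.08) and 1.26 for Hoxc4 (1.1 to 1.43). In each of the 3 sets the computed ratio was greatest for Hoxc9, followed by Hoxc8. Every Hoxc9 ratio here is over the 14 counts of cluster 2, which may be background, so the order of these 2 genes is not measured. For cluster 4 the cluster 2 levels of Hoxc9 and Hoxc8 were exceeded 17.3-fold and 7.27-fold, and Hoxc5 was 3.91-fold higher in cluster 2. For high-count cluster 3 all 5 ratios were below 1, at 0.584 for Hoxc9 (0.0644 to 2.54), 0.413 for Hoxc8, 0.614 for Hoxc6, 0.578 for Hoxc5 and 0.494 for Hoxc4, with no such division between posterior and anterior genes.

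**Figure D2:**
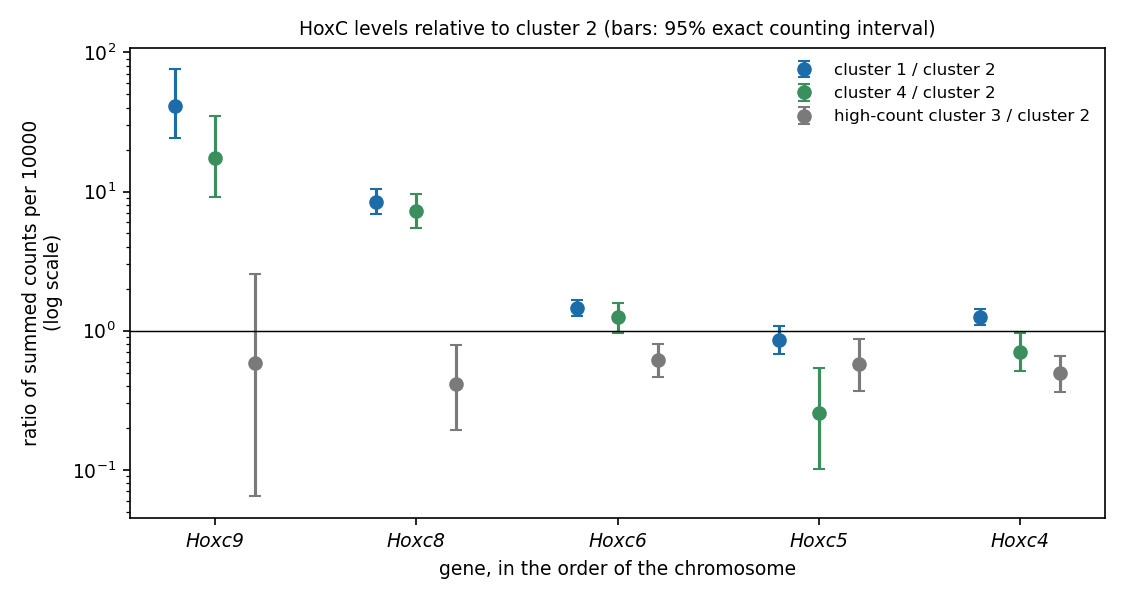
Ratio of summed counts per 10000 to cluster 2 (log axis) for Hoxc9, Hoxc8, Hoxc6, Hoxc5 and Hoxc4 in chromosomal order, for cluster 1, cluster 4 and high-count cluster 3; bars are 95% exact intervals for counting error. The cluster 1 ratio is 41.1 for Hoxc9, over counts in cluster 2 that may be background. It is 8.45 for Hoxc8 and between 0.86 and 1.45 for the other 3 genes.

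The same contrast was expressed as the share of Hoxc8 and Hoxc9 in all counts of Hoxc4, Hoxc5, Hoxc6, Hoxc8 and Hoxc9. This measure was chosen after the levels were seen and is given without a test, and as a share within a class it does not depend on how many counts a cell has. It was 49.4%, 53.5% and 50.7% in the sets of cluster 1 (51.2% ± 2.1) and 41.7%, 54.6% and 51.5% in those of cluster 4. In cluster 2 it was 11.1%, 10.8% and 6.69% (9.53% ± 2.46), and in high-count cluster 3 it was 16.7%, 7.14% and 4.29%, from 12 of 156 counts. Clusters 1 and 4 thus overlapped each other and stood apart from the other pair in every set. Plate by plate the share ran from 45.4% to 60.2% in cluster 1 and from 5.84% to 18.8% in cluster 2. In the low-count cells it was 41.2%, from 7 of 17 counts, with a 95% Clopper-Pearson interval of 18.4 to 67.1. That interval lay above those of cluster 2 (8.03 to 11.5) and high-count cluster 3 (4.04 to 13.1). However, all 7 counts came from Set 2 (7 of 13), with 0 of 2 in Set 1 and 0 of 2 in Set 3. The share therefore rests on 1 set, and these cells are not placed by it.

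**Figure D3:**
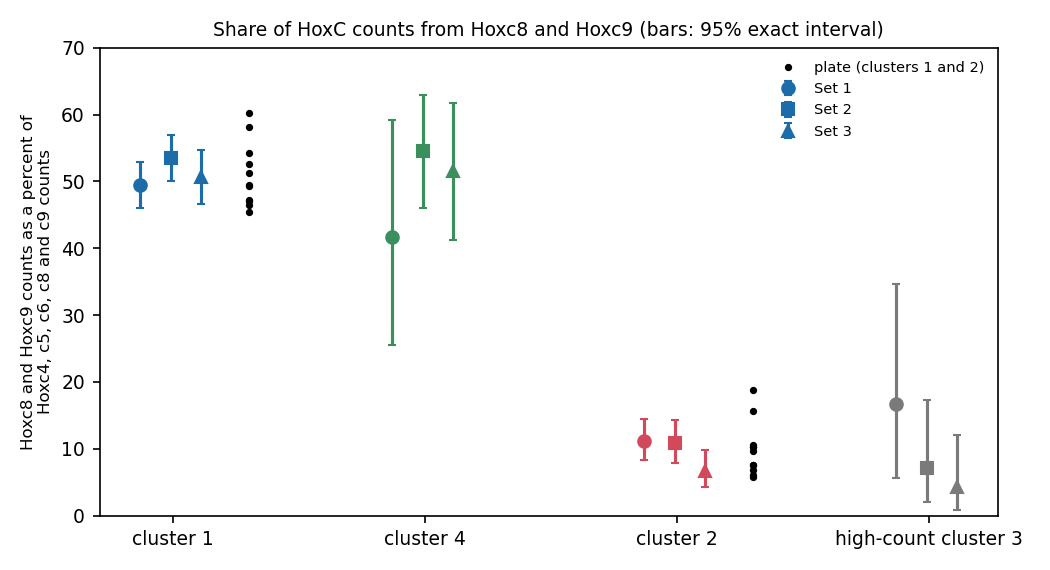
Percent of Hoxc4, Hoxc5, Hoxc6, Hoxc8 and Hoxc9 counts that came from Hoxc8 and Hoxc9, by class and set, with 95% exact intervals; small dots are the 11 plates for clusters 1 and 2. Clusters 1 and 4 lie between 41.7% and 54.6%, cluster 2 and high-count cluster 3 between 4.29% and 16.7%.

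Because the classes differ in depth, the share of cells with a count was also computed as its expectation at 15000 counts per cell, leaving out 21 cells of cluster 1, 12 of cluster 2, 1 of cluster 4 and none of high-count cluster 3 that fell below. Hoxc9 was then expected in 29.1%, 33.4% and 32% of cluster 1 cells (31.5% ± 2.19) and in 2.02%, 1% and 0.68% of cluster 2 cells (1.24% ± 0.7). In cluster 4 it was 13.7%, 23.3% and 14.4%, and in high-count cluster 3 it was 3.24% in Set 1 and 0% in the other sets. Cluster 1 exceeded cluster 4, and both exceeded the other pair, in every set. Without thinning Hoxc9 was seen in 38.9% of cluster 1 cells (34 to 44), 3.58% of cluster 2 cells (1.86 to 6.17), 4.26% in high-count cluster 3 and 27.8% in cluster 4.

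Hoxc8 was expected in 48.8% of cluster 1 cells, 29.8% of cluster 4, 9.77% of cluster 2 and 4.47% of high-count cluster 3, and without thinning in 59.8%, 38.9%, 21.8% and 19.1%. Hoxc6 was more even, at 47.8%, 42.6%, 37.7% and 24% in the same order, and its unthinned shares of 68.6%, 64.8%, 70.4% and 68.1% showed no such order. Hoxc5 was 15.4%, 5.27%, 18.6% and 10.6%, against 26%, 9.26%, 40.9% and 38.3% unthinned. As a gauge of RNA that does not come from the cell itself, since cDNA was pooled within a plate, the vesicular acetylcholine transporter gene Slc18a3 was expected in 96.6% of cluster 4 cells, 2.44% of cluster 1, 4.44% of cluster 2 and 1.84% of high-count cluster 3. The Hoxc9 share in cluster 2, 1.24%, lies below that level and is not read as expression. In high-count cluster 3 the mean Hoxc9 share of 1.08% also lies below it. In Set 1 of that class Hoxc9, from 2 counts, was at 3.24% and Slc18a3 at 1.7%, so no expression is read from these 2 counts. Sst, highest in cluster 4, gave a lower gauge in cluster 2. Without thinning it was seen in 2.39% of cluster 2 cells, against 3.58% for Hoxc9 and 10.7% for Slc18a3. Whether the Hoxc9 counts of cluster 2 came from other cells was not tested. For the more abundant Vip the shares were 98.9% in cluster 4, 23.6% in cluster 1, 20.2% in cluster 2 and 18.6% in high-count cluster 3. The Hoxc8 shares of 9.77% in cluster 2 and 4.47% in high-count cluster 3 lay above those of Slc18a3 and below those of Vip. How much of this Hoxc8 came from other cells was not tested.

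**Figure D4:**
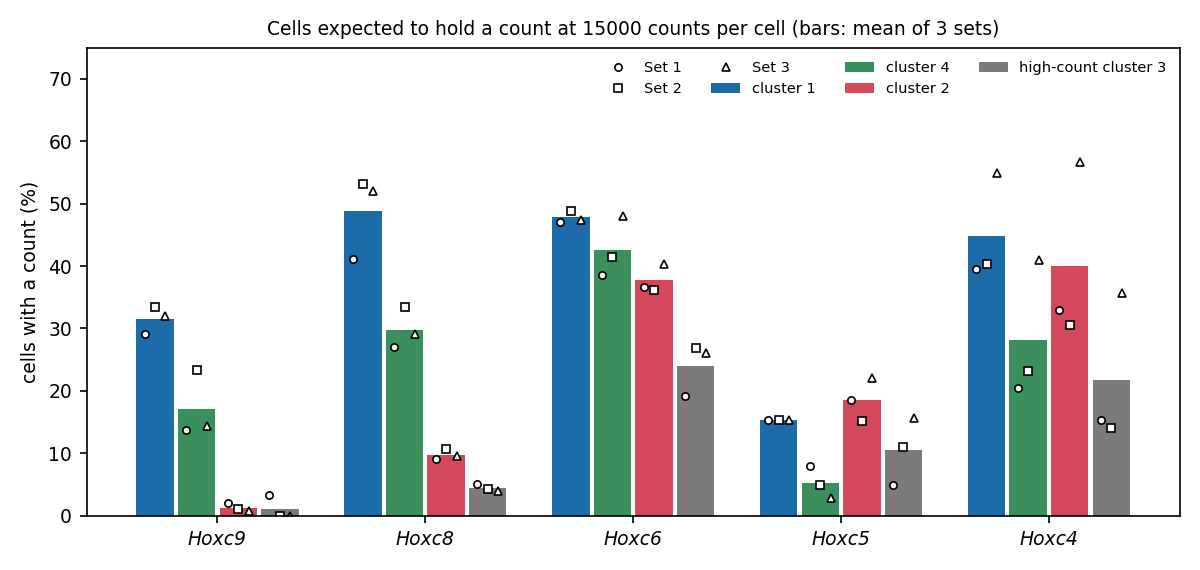
Percent of cells expected to hold a count at 15000 counts per cell for Hoxc9, Hoxc8, Hoxc6, Hoxc5 and Hoxc4; bars are the mean of 3 sets, symbols the sets. Hoxc9 averages 31.5% in cluster 1 and 1.24% in cluster 2, whereas Hoxc6 ranges from 24% to 47.8% over the classes.

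Counted by cell at that depth, Hoxc8 or Hoxc9 was expected in 50.5%, 61.3% and 59% of cluster 1 cells and in 10.1%, 11.7% and 10.2% of cluster 2 cells. It was 28%, 42.6% and 33.9% in cluster 4 and 8.38%, 4.34% and 3.92% in high-count cluster 3. Cells with Hoxc4, Hoxc5 or Hoxc6 and neither posterior gene made up 32.6% ± 2.94 of cluster 1, 61.7% ± 8.48 of cluster 2, 42.3% ± 11.8 of high-count cluster 3 and 34.4% ± 8.1 of cluster 4. Hoxc4, Hoxc5 or Hoxc6 with or without them was expected in 73.8%, 69.6%, 45% and 58.8% of these classes. None of the 5 genes was expected in 10.5% of cluster 1, 27.6% of cluster 2, 52.1% of high-count cluster 3 and 30.8% of cluster 4. Clusters 1 and 2 thus had close shares of cells with anterior HoxC counts and differed in the share with Hoxc8 or Hoxc9.

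Within cluster 1, Hoxc9 was found mostly with Hoxc8 and less with the anterior genes. At 15000 counts Hoxc9 was expected in 48.2%, 47.5% and 48.1% of cells with Hoxc8 and in 15.8%, 17.5% and 14.5% of cells without it. For Hoxc4 the order was turned, with 18.9%, 24.8% and 24.9% of cells with Hoxc4 and 35.8%, 39.2% and 40.6% of cells without it. Hoxc5 gave 18.2%, 24.5% and 17.8% against 31.1%, 35.1% and 34.5%, and Hoxc6 28.7%, 27.8% and 28% against 29.5%, 38.8% and 35.6%. In each gene the 3 sets went the same way, and only for Hoxc6 was the gap in a set as small as that between 28.7% and 29.5%. Unthinned, 130 of 232 cluster 1 cells with Hoxc8 held Hoxc9, and 21 of 156 without it did.

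Hoxc8 itself did not divide by the anterior genes in that way. It was expected in 39.5%, 53.3% and 49.3% of cluster 1 cells with Hoxc4 and in 42.3%, 53% and 55.3% of those without, so the direction differed between sets. With Hoxc6 it was 49.8%, 51% and 54.9% against 33.5%, 55.1% and 49.5%. In cluster 4 Hoxc9 was also expected more often with Hoxc8 (47%, 42% and 33.2%) than without (1.41%, 13.9% and 6.75%), from 53 cells. There it was more frequent with Hoxc6 too, at 27.4%, 35.5% and 17.8% against 5.19%, 14.7% and 11.3%, the opposite direction from cluster 1, and whether the classes differ in this was not tested. These are descriptions of cells that share libraries, and they carry no p.

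**Figure D5:**
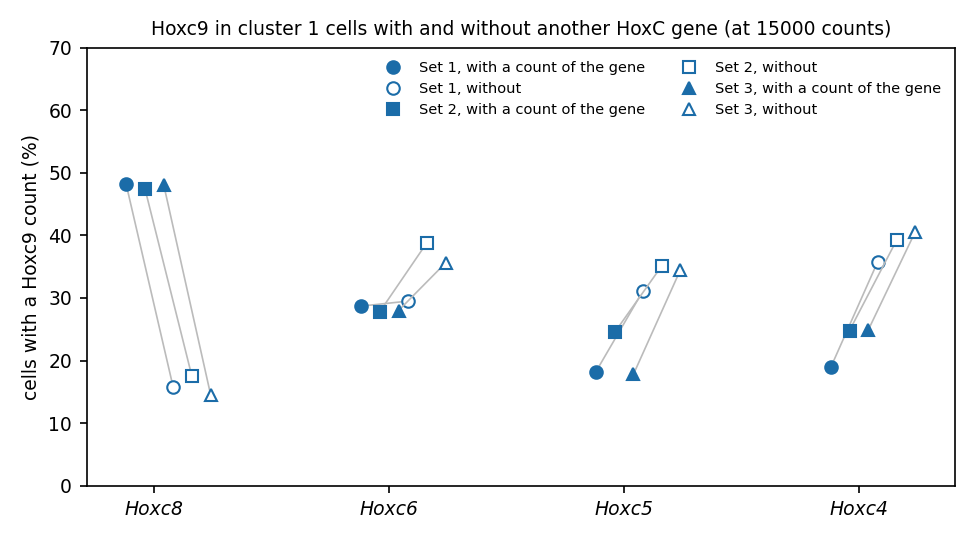
Percent of cluster 1 cells expected to hold Hoxc9 at 15000 counts per cell, among cells with (filled) and without (open) a count of Hoxc8, Hoxc6, Hoxc5 or Hoxc4; symbols are sets, joined by lines. With Hoxc8 the values lie between 47.5% and 48.2% against 14.5% to 17.5% without, and with Hoxc4 between 18.9% and 24.9% against 35.8% to 40.6%.

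Hoxb6 and Hoxb7, HoxB genes of the lower neck and upper chest levels, were near the limit of detection. Hoxb6 had 5 counts in 5 of 878 cells and Hoxb7 5 counts in 4 cells. In clusters 1 and 2 both had counts in Set 1 only (Hoxb6 at 0.00351 and 0.00369, Hoxb7 at 0.00191 and 0.00124), and neither had any in high-count cluster 3 or cluster 4. In low-count cluster 3, Hoxb6 had 1 count. Hoxb7 had 3 there, in 2 cells of Set 1 (0.16 per 10000, 95% exact Poisson interval 0.033 to 0.468). That interval lay above those of clusters 1 and 2, from 1 count each, with upper limits of 0.0049 and 0.00409. The neuron classes could not be compared for either gene at this depth, and no difference was tested.

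Of the 29 Hox genes that are not members, 7 were in the table, and Hoxc4 and Hoxd8 were tested. Hoxc4, the anterior neighbour of Hoxc5, was 0.397, 0.346 and 0.633 in cluster 1, 0.271, 0.263 and 0.607 in cluster 2, 0.114, 0.0998 and 0.298 in high-count cluster 3 and 0.199, 0.227 and 0.402 in cluster 4. Set 3 was highest in all 4 classes. Hoxc4 was not called between clusters 1 and 2 (log2 difference 0.06, limma adjusted p = 0.51). It was lower in high-count cluster 3 than in cluster 1 (-0.26, limma adjusted p = 6.9e-05). This call was lost without the replicate block (0.13) and with the low-count cells as a class (0.051). Hoxc4 was also lower there than in cluster 2 (-0.20, limma adjusted p = 0.0037, but 0.066 without Set 2 and 0.054 without Set 3). It was higher in cluster 1 than in cluster 4 (0.17, limma adjusted p = 0.0031). That call was lost without Set 1 (0.053), without the replicate block (0.34) and with the low-count cells as a class (0.22). Hoxd8, a HoxD gene next to Hoxd9, had means of 0.0868, 0.0698, 0.0842 and 0.0642 in clusters 1, 2, high-count 3 and 4 and was called in no comparison, with adjusted p from 0.45 to 0.91. Hoxb2 (22 counts), Hoxb4 (4), Hoxd3 (4), Hoxd4 (23) and Hoxd9 (19) were too low to test. The difference in Hoxc8 between clusters 1 and 2 therefore had no counterpart in Hoxd8, its paralogue, although the difference between these genes was not itself tested.

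Of 15 non-coding RNAs of the Hox groups, 3 were in the table and Hoxd3os1, which is antisense to Hoxd3 and Hoxd4, was tested. Its exons overlap theirs by 347 bases on the opposite strand, and no source used here states the strand used in counting, so reads there cannot be told apart. Hoxd3os1 was 0.617, 0.524 and 0.635 in cluster 1, 0.688, 0.612 and 0.82 in cluster 2, 0.664, 0.483 and 0.846 in high-count cluster 3 and 0.297, 0.215 and 0.587 in cluster 4. It was higher than in cluster 4 in cluster 2 (log2 difference 0.31, limma adjusted p = 0.00036), in high-count cluster 3 (0.30, adjusted p = 0.00052) and in cluster 1 (0.20, adjusted p = 0.016, but 0.2 without Set 1 and 0.22 without Set 2). Without the replicate block the limma adjusted p against cluster 4 was 0.059 for cluster 2 and 0.28 for cluster 1. With the low-count cells as a class these were 0.084 and 0.35, and with no filter on low levels it was 0.08 for cluster 1. Between clusters 1 and 2 Hoxd3os1 was not called (-0.12, limma adjusted p = 0.31). Hotairm1 (11 counts) and Hoxb3os (10) were too low in the neuron classes to test. Of the Hotairm1 counts, 6 were in 6 low-count cells of cluster 3 (0.32 per 10000, 95% exact Poisson interval 0.117 to 0.697). The upper limits of Hotairm1 in clusters 1 and 2 were 0.0049 and 0.00752.

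Genes that work with or upstream of Hox proteins were looked at by list. Meis1, whose product binds DNA together with Hox proteins, was called neither in cluster 2 against cluster 4 (log2 difference 0.14, limma adjusted p = 0.063) nor in high-count cluster 3 against cluster 2 (-0.14, adjusted p = 0.11). Of 19 tested Polycomb and Trithorax genes, which keep Hox genes off or on, limma called 0 between clusters 1 and 2, with 0 at an unadjusted p below 0.05 and 0 with voom weights. The median log2 difference there was -0.014 for the Polycomb and Trithorax genes, beside -0.011 over all genes.

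Cbx6, a Polycomb subunit, was higher in cluster 1 than in cluster 4 (log2 difference 0.28, limma adjusted p = 0.0013). It was lower in high-count cluster 3 than in cluster 1 (-0.22, limma adjusted p = 0.01, but 0.069 without Set 2 and 0.15 without Set 3). Both calls were lost without the replicate block (0.052 and 0.16) and with the low-count cells as a class (0.05 and 0.16). Between high-count cluster 3 and cluster 4, Cbx8 was higher (0.07, adjusted p = 0.016; 0.072, 0.083 and 0.08 without Sets 1, 2 and 3) and Cbx7 lower (-0.12, adjusted p = 0.0045). Of 6 tested axial regulators, Crabp1, which binds retinoic acid inside the cell, was the 1 called between clusters 1 and 2 (8.07% of all genes were called), and it measured 1.04 ± 0.2 in cluster 1 against 0.0437 ± 0.0245 in cluster 4 (0.64, adjusted p = 7.4e-09) and 0.0389 ± 0.0174 in high-count cluster 3 (-0.64, adjusted p = 1.2e-08). Gdf11 was higher in cluster 1 than in cluster 4 (0.08, adjusted p = 0.04), a call lost without any of the sets (0.38, 0.054 and 0.12 without Sets 1, 2 and 3), and Rxrb was not called in high-count cluster 3 against cluster 4 (-0.08, adjusted p = 0.27). Among 10 sympathetic transcription factors, Sox4, named after its value was seen, was the 1 called between clusters 1 and 2, a share near the 8.07% of all genes. With voom weights 5 of the 10 were called there, beside 2337 of all 10518 genes. At an unadjusted limma p below 0.05 there were 5 of the 10, but the share of all genes at that threshold is not given here, so this count is not read as a result. Of the same 10, 6 were higher and 1 lower in cluster 1 than in cluster 4, beside 8.85% and 11.1% of all genes, with Isl1 (0.74, adjusted p = 2.6e-08) and Gata2 (0.71, adjusted p = 3.2e-07) foremost. Hand1 was lower in high-count cluster 3 than in cluster 1 (-0.69, adjusted p = 1.9e-06) and Sox11 lower in cluster 2 than in cluster 4 (-0.50, adjusted p = 2.4e-06).

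Over the 12 means of 4 classes and 3 sets, the genes most like Hoxc9 were B230216N24Rik (Pearson r 0.973), Egln3 (0.971), Scn3b (0.971), Slc35d3 (0.968) and St3gal5 (0.964). Those most like Hoxc8 were Susd5 (0.975), Gria1 (0.972), Crip1 (0.970), Nrp1 (0.970) and Id2 (0.958). For Hoxc6 they were Mbp (0.941), Camta1 (0.934), Gm23037 (0.909), Nsg2 (0.908) and Ankrd10 (0.906). Hoxc8 and Hoxc9 had an r of 0.905 with each other, Hoxc6 and Hoxc8 0.865, and Hoxc5 and Hoxc8 -0.253. The 12 means share sets and plates and are few, so these values are descriptions.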

How the data were processed

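The authors deposited 1 expression value per gene and cell. These are natural log values, ln(1 + counts per 10000), as the submitters' processing notes say and the values show. Whole counts, within 0.001, were recovered for 100% of non-zero values. The submitters' processing notes list STAR 2.5.3a, featureCounts 1.5.3, SAMtools 1.4.1, Seurat (no version given) and the build GRCm38. The authors' cluster numbers were used as deposited, and no doublet caller was run.

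The planned count test did not apply to a log-normalized table, so limma 3.58.1 (R 4.3.3, trend and robust) was used on log2(1 + counts per 10000), averaged over the cells of a class in a set. The set was a block, because deviations from class means correlated between classes within a set (r 0.481 to 0.866 over 18 pairs, against -0.72 to 0.0736 over 36 pairs of different sets). The tests were two-sided, with Benjamini-Hochberg adjustment over all genes with a mean of at least 0.05. On this scale, log2 differences are too small for genes of low level. The test was also run on cluster 1 cells split at random, with chosen genes lowered by known factors. That setting has no clusters made from the same cells and no classes of unequal depth, and its outcome is not given here. Folds are ratios of summed counts with exact conditional intervals, and all intervals are at 95% and cover counting error only. Shares at 15000 counts are exact hypergeometric expectations, and the thinned fit averaged 20 draws, a number set after 1 draw was seen to be noisy.

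The members, lists and alternatives were chosen with earlier results of these data known. From each list, the 2 genes of smallest p are named for either direction, and for Hoxc6, Hoxc8 and Hoxc9 the 5 genes with the highest correlation. Some items that these rules would name are not reported here. Whether the mice of a pool differ cannot be seen, since mice were pooled before sorting. Alternatives were size factors, voom weights, the filter, the pseudocount, thinning, the block, the low-count class, the glial-rich cells, each set left out and, chosen after seeing the data, plate 8 left out. The rest used scipy 1.17.1, numpy 2.4.6, matplotlib 3.10.9, pandas 2.3.3 and Python 3.11.15.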

Additional observations from a re-analysis of the deposited data

Results flagged for a closer look

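Of 16 groups of 4 plates examined for Hoxc5, Hoxc6, Hoxc8 and Hoxc9, 1 was flagged by an outlier rule. In cluster 2 of Set 1, plate 3 had a Hoxc8 level of 0.134 counts per 10000, while the other 3 plates had 0.0501 to 0.0578. All 4 lay below the lowest cluster 1 plate, at 0.414. Chance flags about 1 in 20 such groups. The rule did not flag plate 8 in cluster 2 of Set 2. Hoxc9 was 0.146 on that plate, against 0 to 0.0388 on the rest of the set, and Hoxc5 was 0.287 against 0.0677 to 0.129.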

How the results depend on the processing

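Of 80 alternative values for the counts of called members and for the split of cluster 3, 64 stayed within 1.5 times and 16 did not. Between clusters 1 and 2, 2 members were called, and 1 with the filter at 0.2, which leaves Hoxc6 and Hoxc8. Leaving out each set kept 2. Between clusters 1 and 4 the count of 3 became 1 with size factors, 1 with the filter at 0.2, 1 with the low-count class, and 1 to 3 with a set left out. Between clusters 2 and 4 it went from 3 to 1 with the filter. Between high-count cluster 3 and cluster 2 it was 1, 2 with size factors, and 0 with no filter, the pseudocount 0.1, thinning, no replicate block, the low-count class, without glial-rich cells or without any set. Without plate 8, an alternative chosen after the plate values were seen, the 6 counts of called members were the same. Against clusters 1 and 4 the calls in high-count cluster 3 stayed within 1.5 times. Without the replicate block 2 members were still called between clusters 1 and 2, while calls over all genes fell from 849 to 273, and they were 209 with the low-count class and 2337 with voom weights.

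Uncalled values that changed sign were Hoxc6 in cluster 2 minus cluster 4 without glial-rich cells (0.01); Hoxd8 in that contrast without glial-rich cells (-0.01) and without Set 1 (-0.02); Hoxd8 in high-count cluster 3 minus cluster 1 with size factors (-0.07) and with a set left out (-0.01 to 0.04); and, in high-count cluster 3 minus cluster 2, Hoxc9 without Set 2 (0.0023), Hoxd8 with a set left out (-0.0026 to 0.04) and Hoxd3os1 with the pseudocount 0.1 (0.06) and with a set left out (-0.06 to 0.03). Rxrb in high-count cluster 3 minus cluster 4 was -0.16 to 0.03 with a set left out. The causes were not tested.

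The share of called genes that were higher in high-count cluster 3 moved with scaling and depth. It was 71.0% against cluster 1, 52.0% with size factors, 57.0% thinned and 87.5% with the pseudocount 0.1, which moved the median of all genes by 0.239. Against cluster 2 it was 63.8%, 50.2%, 51.6% and 79.4%, and against cluster 4 63.3%, 51.9%, 54.0% and 79.5%. The lower Hoxc8 and Hoxc9 against clusters 1 and 4 kept direction and call in all of these. With 3 sets and 47 to 54 cells in the smaller classes, differences in genes of few counts, such as Hoxc5, were at the edge of what could be seen.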
